A study of Arabidopsis thaliana with 9 samples.

Results

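The general phenylpropanoid pathway turns phenylalanine into 4-coumaroyl-CoA, the common precursor of lignin, flavonoids and sinapate esters. Its entry enzymes were followed here in intact Columbia-0 seedlings of Arabidopsis thaliana through 4 probe sets of an Affymetrix ATH1 array. They measure PAL1 (263845_at, AT2G37040), PAL2 (251984_at, AT3G53260), C4H (267470_at, AT2G30490) and 4CL1 (256186_at, AT1G51680). The choice was by name, for their place in the pathway, and not by a rule on their values, but earlier results of these data were known. All 4 were found among the 22746 probe sets left after 64 control probe sets had been set aside. The pairing of each probe set with its gene is that of the selection rule. The probe annotation used here lists 0 of the 4, while RefSeq gives the same symbol to all 4 loci.

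The 9 arrays form 3 groups of 3. SNP seedlings were kept beside an open dish of 100 uM sodium nitroprusside (SNP), a donor of nitric oxide (NO). cPTIO seedlings had 1 mM of the NO scavenger cPTIO added to their own dish. Untreated seedlings received neither agent, and the design text calls them SDW without explaining the letters. Treatment began at 3 days of age and lasted 5 days, so that all seedlings were 8 days old. The treated dishes were sealed inside a larger dish, and the sources used here do not say whether the untreated ones were. The agents reached the seedlings by different routes and at different doses, NO itself was not analysed here, and no mutant line was used. The arrays are labelled as biological replicates, but 3 seedling dishes shared each sealed dish and the labels do not say whether replicates came from separate exposures, so the p-values measure only the spread between these samples.

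Phenylalanine ammonia-lyase (PAL) removes ammonia from phenylalanine to give cinnamate, and PAL1 and PAL2 encode its main isoforms in Arabidopsis. Cinnamate 4-hydroxylase (C4H), a membrane-bound cytochrome P450, then adds a hydroxyl group to the ring. 4-Coumarate:CoA ligase, of which 4CL1 encodes a major isoform, activates the product with coenzyme A. In this plant the genes of these steps are known to be expressed most strongly in lignifying tissue and to respond to light, wounding and infection.

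None of the 4 entry enzymes was shown to change under SNP or under cPTIO. Each of them was, however, lower on the SNP and cPTIO arrays numbered 3 than on the other 4 treated arrays, so that the spread inside the treated groups exceeded the differences between groups. The measure is the RMA expression value, a log2 intensity summary with 1 value for each probe set on each array. They ran from 7.72 to 10.60 for these genes, above the array medians of 4.47 to 4.60. In whole seedlings, fewer cells of a type and less RNA per cell cannot be told apart.

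PAL1 had 10.35, 10.30 and 9.09 on SNP arrays 1 to 3, 9.98, 10.04 and 8.39 on cPTIO arrays 1 to 3, and 10.49, 10.04 and 10.04 on untreated arrays 1 to 3. The treated arrays numbered 3 were the lowest of all 9, and the groups overlapped in every comparison. PAL2, which catalyses the same reaction, had 10.53, 10.42 and 9.68 in SNP, 10.34, 10.39 and 9.46 in cPTIO, and 10.60, 9.63 and 9.71 in untreated seedlings. Here 2 of the 3 untreated arrays were about as low as SNP array 3, and untreated array 1 was the highest of all.

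C4H, the P450 step, had 10.55, 10.19 and 9.48 in SNP, 10.48, 10.29 and 9.29 in cPTIO, and 10.37, 10.40 and 10.55 in untreated seedlings. The untreated arrays lay within 0.18 of each other, whereas the range was 1.07 in SNP and 1.19 in cPTIO. 4CL1, the ligase, had 10.29, 9.61 and 8.37 in SNP, 10.03, 9.58 and 7.72 in cPTIO, and 9.58, 9.29 and 9.76 in untreated seedlings. Within SNP and within cPTIO it varied most of the 4, with an SD of 0.98 in SNP and 1.23 in cPTIO, while in untreated seedlings its SD of 0.24 was below those of PAL1 (0.26) and PAL2 (0.54; n = 3 each). Its arrays numbered 1 lay above every untreated array in both treatments and its arrays numbered 3 below every untreated array.

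**Figure D1:**
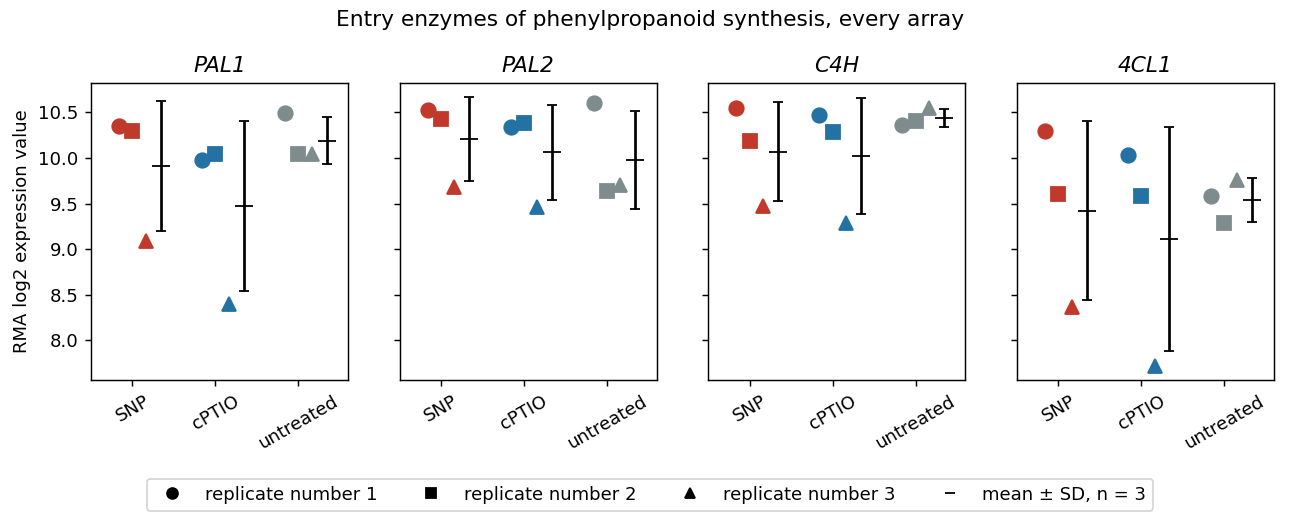
RMA log2 expression values (vertical axis) of PAL1, PAL2, C4H and 4CL1 on each of the 3 SNP, 3 cPTIO and 3 untreated arrays. Marker shape gives the replicate number and bars give the mean ± SD (n = 3). The triangles of SNP and cPTIO, the arrays numbered 3, lie below the other 4 treated arrays in all 4 panels.

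The comparison of SNP with untreated seedlings asks which transcripts respond to an NO donor. PAL1 averaged 9.91 ± 0.71 in SNP and 10.19 ± 0.26 in untreated seedlings (SD, n = 3 each), giving a log2 change of -0.28 ± 0.48 (SE, limma adjusted p = 0.823). For PAL2 the means were 10.21 ± 0.46 and 9.98 ± 0.54 in SNP and untreated seedlings, with a change of 0.23 ± 0.36 (SE). C4H averaged 10.07 ± 0.54 in SNP and 10.44 ± 0.10 in untreated seedlings, with a change of -0.37 ± 0.34 (SE). For 4CL1 the means were 9.42 ± 0.98 in SNP and 9.54 ± 0.24 in untreated seedlings, with a change of -0.12 ± 0.64 (SE). Thus 0 of 4 were called at a limma adjusted p under 0.05, beside 6.19% of all probe sets (2.57% higher and 3.62% lower in SNP), and 0 of 4 had an unadjusted p under 0.05. The adjusted p-values ran from 0.624 to 0.949. The groups were separate for 0 of 4, against 29.9% of all probe sets. The median change of the 4 was -0.20, that of all probe sets 0.0016.

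The intervals show how much change these arrays leave possible. In SNP the 95% interval for PAL1 ran from -1.39 to 0.83 on the log2 scale, from 2.61-fold lower to 1.78-fold higher. It ran from -0.59 to 1.05 for PAL2, from -1.15 to 0.42 for C4H and from -1.58 to 1.34 for 4CL1. At its own standard error a gene would have needed a log2 change of 1.41 (C4H), 1.47 (PAL2), 1.99 (PAL1) or 2.62 (4CL1) in either direction to be called in this comparison.

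The comparison of cPTIO with untreated seedlings asks the same of an NO scavenger, and uses the same 3 untreated arrays. PAL1 averaged 9.47 ± 0.93 in cPTIO and 10.19 ± 0.26 in untreated seedlings (SD, n = 3 each). Its log2 change, -0.72 ± 0.48 (SE), was the largest of the 4 in any comparison (limma adjusted p = 0.412, 95% interval -1.83 to 0.39). C4H averaged 10.02 ± 0.64 in cPTIO and 10.44 ± 0.10 in untreated seedlings, a change of -0.42 ± 0.34 (SE). For 4CL1 the means were 9.11 ± 1.23 in cPTIO and 9.54 ± 0.24 in untreated seedlings, a change of -0.43 ± 0.64 (SE). PAL2 averaged 10.06 ± 0.52 in cPTIO and 9.98 ± 0.54 in untreated seedlings, a change of 0.08 ± 0.36 (SE). Again 0 of 4 were called by limma, beside 6.59% of all probe sets (2.32% higher and 4.27% lower in cPTIO), with adjusted p-values from 0.412 to 0.917 and 0 of 4 at an unadjusted p under 0.05. The groups were separate for 0 of 4, against 26.4% of all probe sets. The median change of the 4 was -0.43 and that of all probe sets 0.02.

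SNP against cPTIO sets the donor against the scavenger. All 4 genes had a higher mean in SNP, and none of the differences passed the test. The log2 difference was 0.44 for PAL1, 0.31 for 4CL1, 0.15 for PAL2 and 0.05 for C4H, with SEs of 0.48, 0.64, 0.36 and 0.34. With limma 0 of 4 were called, beside 3.26% of all probe sets (1.68% higher and 1.59% lower in SNP), adjusted p-values ran from 0.694 to 0.961, and 0 of 4 had an unadjusted p under 0.05. The groups were separate for 0 of 4, against 21.2% of all probe sets. Among all 3 groups, limma's F-test called 0 of 4, beside 9.79% of all probe sets, and the smallest adjusted p was 0.576, for PAL1.

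The main fit, which gave the SNP against cPTIO results above and those of the other genes below, did not pair the arrays. As deviations of SNP and cPTIO arrays of the same number correlated, differences were also taken within numbers, where the spread was smaller. PAL1 in SNP exceeded PAL1 in cPTIO by 0.38, 0.25 and 0.70 for numbers 1, 2 and 3. 4CL1 was higher in SNP by 0.26, 0.03 and 0.65. PAL2 was higher in SNP by 0.19, 0.03 and 0.22. C4H differed by 0.07, -0.10 and 0.19, with no common direction. With the number as a block in a fit of these 6 arrays the SNP minus cPTIO difference of PAL1 had a 95% interval of 0.12 to 0.77 and a limma adjusted p of 0.168, which misses the threshold.

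**Figure D2:**
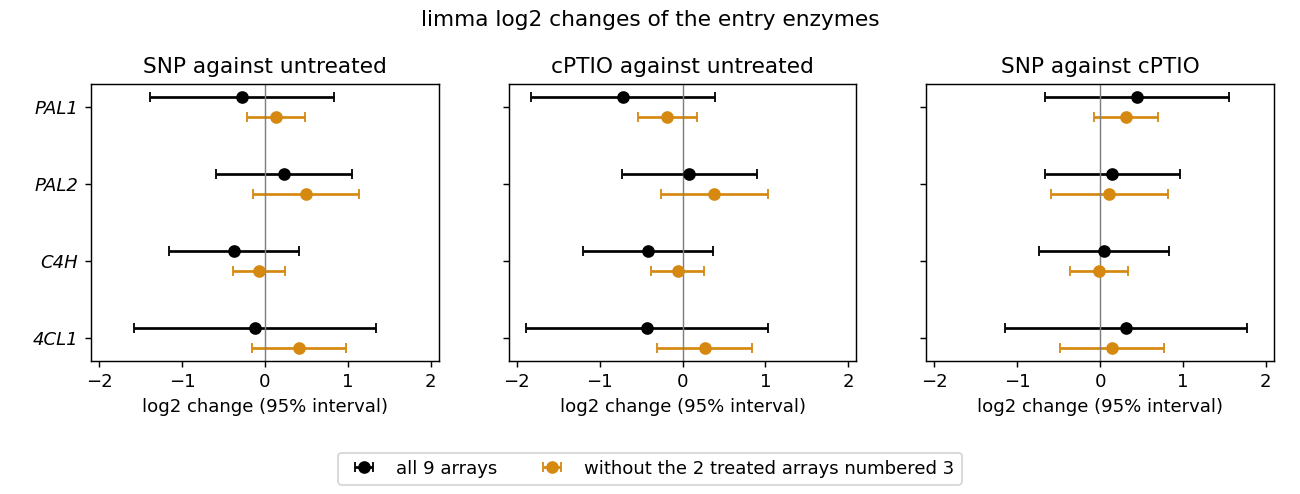
limma log2 changes of the 4 entry enzymes (horizontal axis, with 95% intervals) for SNP against untreated, cPTIO against untreated and SNP against cPTIO. Black points use all 9 arrays and orange points leave out the SNP and cPTIO arrays numbered 3. Every interval includes 0, and the orange ones are the narrower.

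The arrays numbered 3 stood apart from the rest of their groups. Relative to the mean of arrays 1 and 2 of its own group, array 3 in SNP was lower by 2.35-fold for PAL1, 1.73-fold for PAL2, 1.85-fold for C4H and 3.00-fold for 4CL1. In cPTIO it was lower by 3.06-fold for PAL1, 1.87-fold for PAL2, 2.13-fold for C4H and 4.26-fold for 4CL1. Untreated array 3 differed from its group by log2 values of -0.22 for PAL1, -0.41 for PAL2, 0.16 for C4H and 0.32 for 4CL1, so it showed no such shift shared by the 4.

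Few probe sets moved as far down as these 4 genes. The median of all probe sets for array 3 minus the mean of arrays 1 and 2 was 0.0086 in SNP and -0.017 in cPTIO. As RMA sets the arrays to 1 distribution, this median cannot show that array 3 was otherwise like arrays 1 and 2. Over all probe sets, cPTIO array 3 differed from arrays 1 and 2 with SDs of 0.58 and 0.51, against 0.31 between arrays 1 and 2. The same SDs were 0.36, 0.33 and 0.23 in SNP and 0.34, 0.25 and 0.29 in untreated arrays. Probe sets that lay further down than 4CL1 made up 0.286% of the table in SNP and 0.237% in cPTIO. For PAL1 the shares were 0.580% in SNP and 0.655% in cPTIO, for C4H 1.30% and 2.14%, and for PAL2 1.76% and 3.52%. Among untreated arrays the shares were 12.8% for PAL1, 77.3% for C4H and 90.3% for 4CL1, but 3.86% for PAL2, which thus lay about as far down the tail there as in cPTIO. Both treated arrays numbered 3 lay below the other 4 treated arrays in 4 of 4 entry enzymes, beside 9.18% of all probe sets, and above them in 0 of 4, beside 9.67%. For PAL1, C4H and 4CL1 they also lay below all untreated arrays, as in 5.29% of all probe sets. The residual SD around the group means was 0.92 for 4CL1, 0.69 for PAL1, 0.51 for PAL2 and 0.49 for C4H, and the median over all probe sets was 0.17. These positions describe a pattern seen in the data, and no test was made of it. They are set against all probe sets, while the mean levels of the 4 lay at percentiles from 95.9 (4CL1) to 97.9 (C4H). Dim probe sets have little room to fall, so the 4 may look more unusual here than beside genes of like level.

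**Figure D3:**
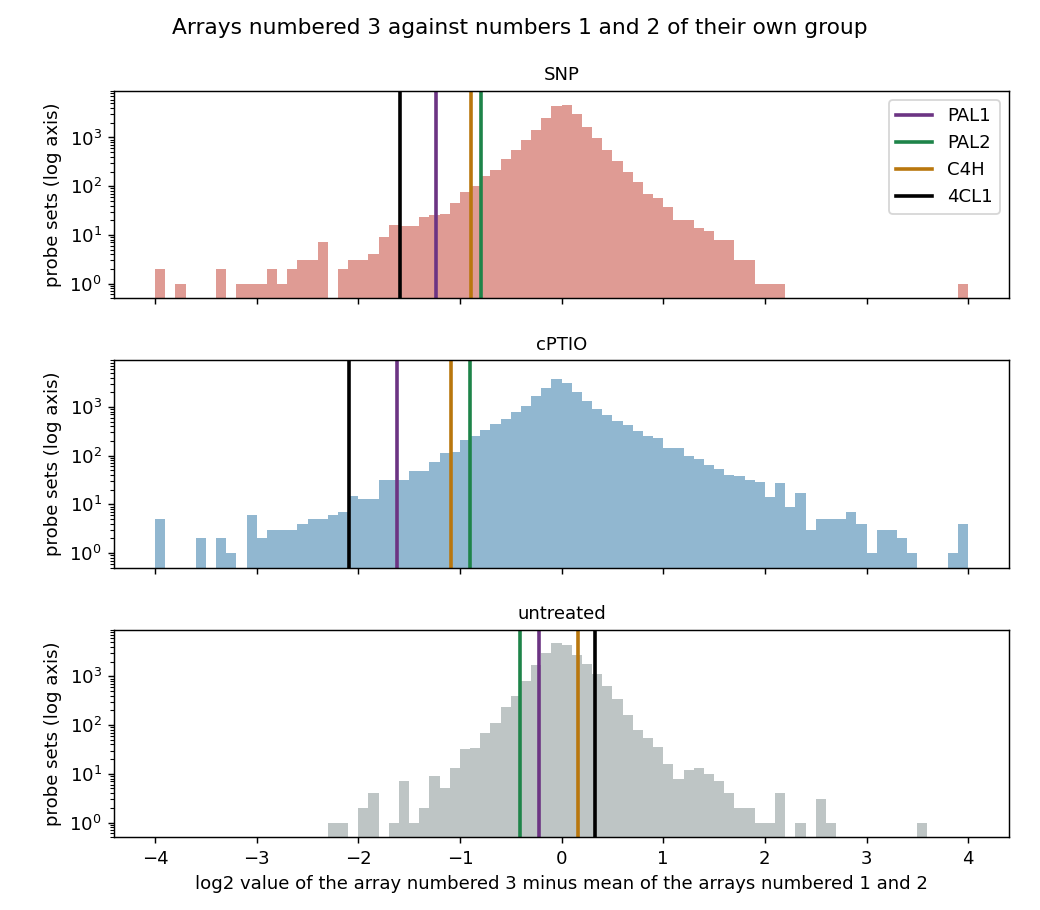
Number of probe sets (vertical axis, log scale) by the log2 value of the array numbered 3 minus the mean of arrays 1 and 2, for SNP, cPTIO and untreated arrays. Coloured lines mark the 4 entry enzymes, at -0.79 or below in SNP and -0.90 or below in cPTIO, against -0.41 to 0.32 in untreated arrays; values beyond the axis ends are in the outermost bars.

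Several measures of the arrays moved with the number 3. For the actin and GAPDH controls, the 3-prime minus the 5-prime log2 value, a sign of RNA quality, was 1.02 on SNP array 3 and 0.99 on cPTIO array 3. It ran from 0.73 to 0.86 on the other treated arrays and from 0.75 to 0.96 on untreated arrays. The poly-A spike-ins averaged 4.76 and 4.60 on SNP and cPTIO array 3, above the 3.85 to 4.46 of the other treated arrays and the 3.71 to 3.90 of untreated arrays. These averages lie near or below the array medians of 4.47 to 4.60 and are not shown to lie above background. Actin averaged 9.34 and 8.88 on these arrays, below the 9.60 to 9.74 of the other treated arrays, while untreated arrays ran from 9.18 to 9.53, a range that includes SNP array 3. The hybridisation control BioB was low on cPTIO array 3, at 6.25, but not on SNP array 3, at 7.18. The hybridisation controls BioD (9.48) and cre (11.71) were also lowest of the 9 on cPTIO array 3, but not on SNP array 3 (10.23 and 12.21). GAPDH was 11.05 on cPTIO array 3 and 11.37 on SNP array 3. It ran from 11.51 to 11.69 on the other treated arrays and from 11.55 to 11.68 on untreated arrays. In the fit with array weights, cPTIO array 3 had the lowest weight, 0.30, but SNP array 3 had 0.77, above cPTIO array 1 at 0.64. The part of these measures in the values of the entry enzymes was not tested. The array median, on SNP array 3 and on cPTIO array 3, lay within the range of the other treated arrays, 4.47 to 4.52. RMA brings the arrays to similar medians, so this says little about them.

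Without the SNP and cPTIO arrays numbered 3, a choice made after seeing the data, the log2 change in SNP was 0.13 for PAL1 and 0.41 for 4CL1, higher than untreated instead of lower. For PAL2 it was 0.50 and for C4H -0.07. In cPTIO the changes became -0.18 for PAL1, 0.38 for PAL2, -0.06 for C4H and 0.27 for 4CL1, so that 4CL1 changed sign here too. The interval for C4H narrowed to -0.39 to 0.25 in SNP and -0.38 to 0.26 in cPTIO. With these 7 arrays 0 of 4 were called in each of the 3 comparisons. Of all 22746 probe sets, 2256 were called for SNP and 2330 for cPTIO against untreated, and 1392 for SNP against cPTIO. Between SNP and cPTIO the differences without both arrays were 0.32 for PAL1, 0.11 for PAL2, -0.016 for C4H and 0.14 for 4CL1, so that only C4H turned. Leaving out cPTIO array 3 alone, which keeps the low SNP array 3, turned all 4, to -0.09 for PAL1, -0.15 for PAL2, -0.31 for C4H and -0.38 for 4CL1.

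Whether the 4 genes changed by unequal amounts was asked within arrays, which needs no comparison of levels between probe sets. Over 6 pairs of genes in each comparison, the largest difference lay between PAL1 and PAL2 in cPTIO against untreated, where the change of PAL1 minus that of PAL2 was -0.80 (95% interval -1.45 to -0.16). Its exact permutation p of 0.1 is the smallest that 3 arrays against 3 allow, and was 0.60 after adjustment over 6 pairs. PAL1 minus PAL2 was -0.51 in SNP against untreated (exact permutation p = 0.1, adjusted 0.60). No other pair had an interval that left out 0 in these unpaired comparisons. Within replicate numbers, a comparison added after seeing the data, SNP minus cPTIO was larger for PAL1 than for C4H by 0.31, 0.36 and 0.51 for numbers 1, 2 and 3. The mean of 0.39 had a 95% interval of 0.13 to 0.66, the only 1 of 6 paired intervals to leave out 0. Its exact permutation p of 0.25, adjusted 0.30, is the smallest that 3 pairs allow, so this design could not pass the threshold. For C4H and 4CL1, the steps that follow each other, the change of C4H minus that of 4CL1 was 0.01 in cPTIO against untreated (95% interval -0.86 to 0.89). It was -0.25 in SNP against untreated (-1.13 to 0.62) and -0.26 in SNP against cPTIO (-1.14 to 0.61).

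The other genes of the pathway were taken from lists by function. The annotation named 14 of 81 listed genes with a probe set of their own, and 0 of the PAL and 4CL isoforms, P450 reductases and regulators on them. Before the entry enzymes stand DHS3, which starts the shikimate pathway, and DHQS, its next enzyme. Neither passed the test in any comparison (limma adjusted p from 0.574 to 0.899), with changes from -0.22 to 0.09. DHS3 had 9.72, 9.88 and 9.32 in SNP, 9.75, 9.87 and 9.04 in cPTIO, and averaged 9.74 ± 0.23 in untreated seedlings (SD, n = 3), so its treated arrays numbered 3 were low as well. HCT, which leads from 4-coumaroyl-CoA to lignin precursors, had 9.92, 9.73 and 9.21 in SNP, 10.26, 9.66 and 9.19 in cPTIO, and 9.80, 9.59 and 9.84 in untreated seedlings. Its log2 change was -0.12 in SNP and -0.04 in cPTIO (limma adjusted p = 0.870 and 0.952). CCR2, a cinnamoyl-CoA reductase, stayed between 3.26 and 3.70 on all arrays, below every array median.

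In the sinapate and coumarin branch 1 of 5 genes was called lower in SNP than in untreated seedlings, beside 3.62% of all probe sets. In cPTIO 1 of 5 was called lower, beside 4.27%, and 1 of 5 higher, beside 2.32%. The median log2 change of the 5 was -0.38 in SNP and -0.48 in cPTIO. REF1, the aldehyde dehydrogenase that makes ferulate and sinapate, had 8.22, 8.21 and 7.85 in SNP, 8.01, 8.35 and 8.44 in cPTIO, and 8.97, 9.07 and 9.02 in untreated seedlings. All treated arrays lay below all untreated ones. REF1 fell by 0.93 in SNP (SE 0.14, limma adjusted p = 0.00884) and by 0.75 in cPTIO (SE 0.14, limma adjusted p = 0.0226). The SNP call held in all 16 alternatives. The cPTIO call was lost in 5 of 16, namely without cPTIO array 1 or any 1 of the 3 untreated arrays and when the third group was left out of the fit, with limma adjusted p up to 0.0938.

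UGT84A3, a glucosyltransferase that acts on hydroxycinnamates, had 5.87, 5.89 and 5.89 in SNP, 6.81, 6.21 and 6.66 in cPTIO, and 5.69, 5.34 and 5.26 in untreated seedlings. It rose 2.19-fold in cPTIO (log2 change 1.13, SE 0.17, limma adjusted p = 0.0121). Leaving out untreated array 2 ended this call (limma adjusted p = 0.0613), as did leaving SNP out of the fit (0.0549). COSY, which closes the coumarin ring, had 7.68, 7.64 and 6.87 in SNP, 7.98, 7.78 and 6.15 in cPTIO, and 7.95, 7.52 and 7.87 in untreated seedlings, with its treated arrays numbered 3 lowest. F6'H1, the hydroxylase before COSY, averaged 5.86 ± 0.20 in SNP, 6.31 ± 1.02 in cPTIO and 7.48 ± 0.34 in untreated seedlings (SD, n = 3 each), and missed the threshold with a limma adjusted p of 0.0708 for SNP and 0.152 for cPTIO.

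In the flavonoid branch all 5 genes had higher means in SNP than in cPTIO, and 2 of 5, DFR and UGT75C1, were called, beside 1.68% of all probe sets called higher. UGT75C1 was also called higher in SNP than in untreated seedlings, beside 2.57%. The median log2 change of the 5 was 1.22 in SNP and -0.96 in cPTIO against untreated, and 1.01 between SNP and cPTIO. DFR, which reduces dihydroflavonols, had 9.45, 9.62 and 7.95 in SNP, 5.19, 5.37 and 4.47 in cPTIO, and 5.94, 8.25 and 7.73 in untreated seedlings. It was 16.0-fold higher in SNP than in cPTIO (log2 difference 4.00, SE 0.64, limma adjusted p = 0.0173), and neither treatment was called against untreated. UGT75C1 (AT4G14090), an anthocyanin glucosyltransferase, had 8.53, 8.95 and 6.94 in SNP, 4.98, 4.82 and 4.50 in cPTIO, and 5.53, 6.22 and 5.43 in untreated seedlings. It was 10.4-fold higher in SNP than in cPTIO (limma adjusted p = 0.00996) and 5.32-fold higher in SNP than in untreated seedlings (limma adjusted p = 0.0241). Both genes were lowest on array 3 within SNP and within cPTIO. Their cPTIO values were low, from 4.47 to 5.37 beside array medians of 4.47 to 4.60, and DFR on cPTIO array 3 was below its own, so the sizes of the SNP to cPTIO differences are uncertain.

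These calls rested on few arrays. For DFR the call was lost without cPTIO array 1, SNP array 1 or SNP array 2, with limma adjusted p up to 0.0871. For UGT75C1 against cPTIO it was lost without SNP array 1 and without the untreated group in the fit, with limma adjusted p up to 0.0509. Against untreated it was lost without SNP array 1, SNP array 2 or any 1 untreated array, with limma adjusted p up to 0.0861. The other 3 flavonoid genes, CHIL, UGT78D1 and UGT78D2, were not called in any comparison. CHIL, an accessory protein of chalcone synthesis, had 8.40, 8.39 and 7.33 in SNP, 7.95, 8.22 and 5.35 in cPTIO, and 9.02, 8.73 and 8.00 in untreated seedlings. UGT78D1, a flavonol rhamnosyltransferase, likewise had its lowest treated values on the arrays numbered 3, at 7.89 in SNP and 6.41 in cPTIO.

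**Figure D4:**
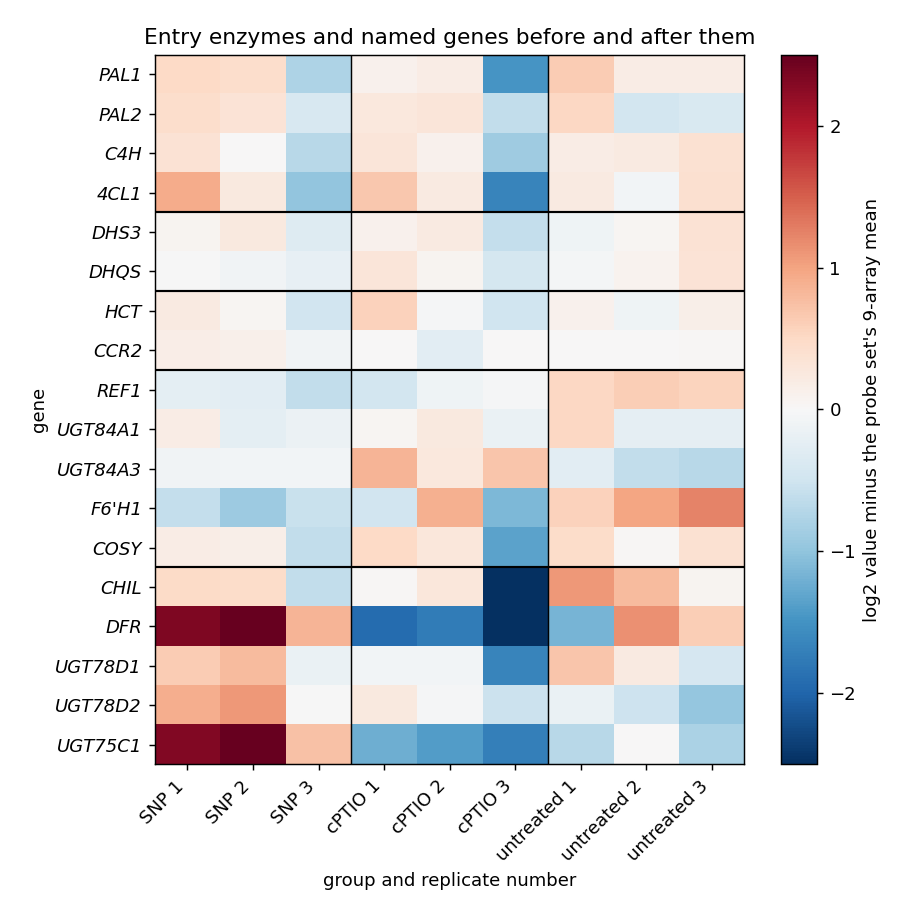
Log2 value minus the 9-array mean of the same probe set (colour) for the 4 entry enzymes and the 14 listed genes the annotation names, on each array; the outermost colours also stand for values beyond the scale. Lines part entry enzymes, shikimate, lignin, sinapate and coumarin, and flavonoid genes. SNP 3 and cPTIO 3 are blue for the entry enzymes, while DFR and UGT75C1 are red in SNP and blue in cPTIO.

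Over these 14 genes, both treated arrays numbered 3 lay below the other 4 treated arrays in 6, namely DHS3, DHQS, HCT, COSY, CHIL and UGT78D1, beside the 9.18% of all probe sets given above. A further list of 11 genes, mostly of hydroxycinnamate and monolignol conjugation, was added once the annotation was known. There this held for 1 of 11, UGT84A4, and for 7 of 25 over both sets. Of the 11, only UGT72E1, UGT72E2 and UGT84A4 had a mean over the 9 arrays above every array median. In the others a fall could hardly show, so these counts do not tell how common the pattern was. The added list includes 4CL8, a 4CL-like gene, which stayed between 3.36 and 3.81 on all arrays, below the array medians, and was not called in any comparison. In this list 1 of 11 genes was called lower in SNP than in untreated seedlings, beside 3.62% of all probe sets, namely FACT, a fatty alcohol caffeoyltransferase. FACT averaged 4.09 ± 0.07 in SNP, 4.54 ± 0.04 in cPTIO and 4.75 ± 0.10 in untreated seedlings (SD, n = 3 each). Its log2 change in SNP was -0.66 (limma adjusted p = 0.00454). As that level in SNP is under the array medians, the size is uncertain. The difference of -0.45 between SNP and cPTIO (limma adjusted p = 0.0267) was lost in 11 of 16 alternatives, among them the replicate block on the SNP and cPTIO arrays alone (limma adjusted p = 0.116).

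UGT72E2, which glucosylates monolignols, was 7.85 and 7.92 on cPTIO arrays 1 and 2 and 5.94 on cPTIO array 3. In SNP it had 6.02, 6.07 and 6.04, and in untreated seedlings 7.51, 7.55 and 7.82. The change in SNP against untreated missed the threshold (log2 change -1.58, SE 0.46, limma adjusted p = 0.0839). Its cPTIO array 3 thus lay at the SNP level, while in SNP array 3 did not stand apart.

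The profile most like that of the 4 entry enzymes was sought among probe sets with 1 annotated gene and a mean above the table median. Likeness was Pearson's r over the 9 arrays with the mean of the 4 centred profiles, a description made largely by the 2 low arrays. The 5 closest were AT5G66820 (r = 0.979), AT3G09440 (0.969), AT3G22550 (0.960), AT3G07090 (0.959) and AT1G23205 (0.953). Without the SNP and cPTIO arrays numbered 3 their r over 7 arrays was 0.847, 0.676, 0.572, 0.719 and 0.646. AT3G09440 had 10.14, 9.90 and 8.41 in SNP, 10.32, 9.76 and 7.0 in cPTIO, and 10.31, 9.83 and 9.58 in untreated seedlings. None of the 5 was called in any of the 3 comparisons, the smallest limma adjusted p being 0.522. Of all probe sets, 6.19% were called for SNP and 6.59% for cPTIO against untreated, and 3.26% for SNP against cPTIO.

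The tissue label was checked with markers chosen after the annotation was known, since it named 0 of 17 markers listed earlier. The 6 green shoot genes, which encode photosystem and carbon fixation proteins, had group means from 10.99 to 13.16, and 0 of 6 were called in any comparison. Beside this, 6.19% of all probe sets were called for SNP and 6.59% for cPTIO against untreated, and 3.26% for SNP against cPTIO. The root hair expansins EXPA7 and EXPA18 were both lower in SNP than in untreated seedlings. EXPA7 ran from 4.66 to 5.39 in SNP, from 5.52 to 5.72 in cPTIO and from 6.02 to 6.15 in untreated seedlings. EXPA18 ran from 4.86 to 5.39 in SNP, from 5.34 to 5.86 in cPTIO and from 6.28 to 6.64 in untreated seedlings. The EXPA7 call in SNP (log2 change -0.98, limma adjusted p = 0.0192) was lost without any 1 untreated array, and that of EXPA18 (log2 change -1.28, limma adjusted p = 0.00702) held in all 16 alternatives. In cPTIO EXPA18 was called too (log2 change -0.79, limma adjusted p = 0.0414), but not in 10 of 16 alternatives. The secondary wall genes IRX15 and IRX15-L and the seed storage gene PAP85 had group means from 2.83 to 3.70, below all array medians, so lignifying xylem was not shown by its markers. The part of these markers in the values of the entry enzymes was not tested.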

How the data were processed

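Total RNA of whole seedlings was hybridised to 9 Affymetrix arrays, 1 sample each. The authors deposited 1 log2 value for each probe set and array. RMA and limma are the tools in the submitters' processing notes, without versions. RMA sets the arrays to 1 distribution, which can hide a shift common to most genes. Scanner data and detection calls were not analysed here, and precision is limited by having 3 arrays a group. Groups and replicate numbers came from the sample titles.

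limma 3.58.1 in R 4.3.3 (lmFit, contrasts, eBayes) was fitted to all 9 arrays and 22746 probe sets with group as the sole term and no filter. Tests were two-sided with Benjamini-Hochberg adjustment over all probe sets. The fit was tested on simulated data with independent noise on each array. They held no deviation shared between arrays, so this test does not bear on the arrays numbered 3. Pairs of genes were compared by exact permutation tests. Figures used Python 3.11.15 and matplotlib 3.10.9.

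Genes other than the entry enzymes were named through the platform annotation and RefSeq (TAIR10.1): 13513 probe sets had 1 gene (13436 matched to RefSeq), 503 several, and 8730 were not listed. The entry enzymes, gene lists and tests were chosen with earlier results of these data known. Named genes were the entry enzymes, their isoforms and branch-point enzymes where annotated, up to 4 called genes per list, and the 5 closest profiles. Others are named as examples chosen after their values were seen. Deviations from group means correlated between same-numbered SNP and cPTIO arrays at 0.257, 0.305 and 0.417, all above 0.1. These numbers were therefore taken to pair the arrays in the replicate block and the within-number differences, but not in the main fit. Against untreated arrays at most 1 of 3 did so, and those were treated as unpaired, except in the alternative with a replicate block on all 9 arrays. Alternatives were fits of 2 groups, array weights, an intensity trend, median centring, a filter on dim probe sets, leaving out each array, a replicate block and, added later, omission of the treated arrays numbered 3 and, for pairs of genes, differences within replicate numbers.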

Additional observations from a re-analysis of the deposited data

Results flagged for a closer look

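Signals outside the tested probe sets were compared between treated and untreated arrays, and 2 lay above all 3 untreated arrays on all 6 treated ones. The hybridisation control BioC, a bacterial transcript added to the sample, averaged 8.53 ± 0.09 in SNP, 8.36 ± 0.51 in cPTIO and 6.32 ± 0.18 in untreated arrays (SD, n = 3 each), a treated minus untreated log2 difference of 2.12. Ubiquitin control probe sets averaged 11.30 ± 0.02 in SNP, 11.37 ± 0.06 in cPTIO and 10.99 ± 0.03 in untreated arrays, a difference of 0.34. The other hybridisation controls, BioB, BioD and cre, had smaller differences of 0.35, 0.21 and 0.13, and their treated and untreated arrays overlapped. Only higher values were sought. The array medians were lower on all treated arrays, at 4.47 to 4.52, than on all untreated ones, at 4.54 to 4.60. The entry enzymes did not part treated from untreated arrays, and their low arrays, SNP 3 and cPTIO 3, had BioC values of 8.64 and 7.77. REF1 and EXPA18, lower on all treated than on all untreated arrays, did part them. The part of these array signals in the calls against untreated was not tested.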

How the results depend on the processing

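The number of entry enzymes called was 0 in all 64 counts under the alternatives, and of 196 single log2 changes none gained a call (smallest limma adjusted p 0.168, for PAL1 in SNP against cPTIO with the replicate block and these 2 groups alone, log2 difference 0.44). The replicate block changed no call of an entry enzyme. The sign held in 174 of the 196. With array weights it turned for 4CL1 (0.15 in SNP, 0.0017 in cPTIO) and for C4H between SNP and cPTIO (-0.035), and without both treated arrays numbered 3 for PAL1 in SNP (0.13), 4CL1 in SNP (0.41) and cPTIO (0.27), and C4H between SNP and cPTIO (-0.016). Leaving out 1 array at a time gave, in SNP against untreated, -0.50 to 0.13 for PAL1 and -0.55 to 0.41 for 4CL1, in cPTIO against untreated, -0.091 to 0.39 for PAL2 and -0.89 to 0.27 for 4CL1, and in SNP against cPTIO, -0.095 to 0.85 for PAL1, -0.15 to 0.41 for PAL2, -0.31 to 0.35 for C4H and -0.38 to 0.84 for 4CL1. The cause was not tested. Calls over all probe sets, 1409 for SNP, 1498 for cPTIO and 742 between the treatments, ran from 500 to 3560, from 122 to 2330 and from 161 to 1652. Of 177 values of the called list genes, 136 kept their call, 41 lost it and 0 changed sign. Probe sets near the array medians are not shown to lie above background.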
